A study of Mus musculus with 16 samples.

Results

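The genes described here are 10 genes of MHC class I antigen presentation and the immunoproteasome, fixed by name: H2-K1, H2-D1, B2m, Tap1, Tap2, Tapbp, Psmb8, Psmb9, Erap1 and Nlrc5. They are 10 of the 24421 gene symbols counted in each library, and all 10 passed the filter on low counts in every comparison. In M-MDSCs of Nlrp3-/- mice the level of Tap1 alone was called above WT, where 10.6% of all genes were called. H2-K1 lay just under the fold change threshold there. In G-MDSCs 0 of the 10 passed the test between genotypes, where 16.4% of all genes were called. The Tap1 call was lost in 13 of 21 alternative settings. Between subsets, H2-D1 was higher and Erap1 and Nlrc5 were lower in G-MDSCs of both genotypes, where 53.3% (WT) and 51% (Nlrp3-/-) of all genes were called. The calls of H2-D1 depended on how libraries were scaled. Those of Nlrc5 were lost in 6 of 20 alternative settings in WT and 10 of 20 in Nlrp3-/- mice.

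MHC class I molecules show short peptides from inside the cell to CD8 T cells. The proteasome cuts proteins into peptides, and in cells exposed to interferon the subunits encoded by Psmb8 and Psmb9 replace catalytic subunits of the constitutive form. Tap1 and Tap2 form the transporter that carries peptides into the endoplasmic reticulum, where the aminopeptidase Erap1 trims them and tapasin (Tapbp) helps to load them. The heavy chains H2-K1 and H2-D1 pair with beta-2 microglobulin (B2m) to hold the peptide at the surface, and Nlrc5 is a transactivator of class I genes. Myeloid-derived suppressor cells (MDSCs) are immature myeloid cells that expand in tumor-bearing hosts and dampen T cells, with a monocytic (M-MDSC) and a granulocytic (G-MDSC) subset.

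Messenger RNA was measured by 3′ tag sequencing in both subsets, each sorted from spleen, for 4 WT and 4 Nlrp3-/- mice on the C57BL/6 background, which gave 16 libraries in 4 groups of 4. Every mouse carried a subcutaneous B16.F10 melanoma, a transplanted mouse line, from 300000 implanted cells, so no group was free of tumor, and no other treatment is named. The Nlrp3-/- allele carries an EGFP cassette with a poly(A) signal fused to the start codon of Nlrp3 in all cells of the body. A library is 1 subset of 1 mouse and the 2 libraries of a mouse share its replicate number. The study's methods give mice matched for sex and age, from 6 to 12 weeks old.

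Library sizes ran from 2295967 to 6079866 counts. Nlrp3 was measured at 40.6 to 88.7 CPM (read counts scaled to a common library total by TMM, used throughout) in WT and 0.513 to 1.87 CPM in Nlrp3-/- M-MDSCs, and at 251.2 to 330.3 CPM in WT and 5.50 to 13.6 CPM in Nlrp3-/- G-MDSCs. The labelled subsets carried their markers. The 8 monocytic markers summed to 6082 to 9217 CPM in M-MDSCs and 784 to 1354 CPM in G-MDSCs, and the 10 granulocytic markers to 1454 to 8744 and 115204 to 175455 CPM. The sum of 8744 CPM was that of WT M-MDSC replicate 2 alone, and the other M-MDSC libraries lay at 1454 to 2550 CPM. Markers of macrophages moved with genotype, with 6 of 8 tested higher and 0 lower in Nlrp3-/- cells of each subset. The 9 listed macrophage markers summed to 123 to 140 CPM in M-MDSCs of WT and 223 to 353 CPM in those of Nlrp3-/- mice, and to 137 to 251 CPM and 420.5 to 611 CPM in the G-MDSCs. Of the NK cell markers tested, 1 of 5 in M-MDSCs and 1 of 4 in G-MDSCs was called higher (Gzma, a granzyme) and 0 lower. These counts stand beside the same 10.6% and 16.4% of all genes. The median log2 fold change of the tested NK markers was 0.82 in M-MDSCs and 0.05 in G-MDSCs, beside 0.07 and 0.03 over all genes. The 5 listed NK markers summed to 34.0 to 69.8 CPM in M-MDSCs of WT and 94.5 to 139 CPM in those of Nlrp3-/- mice, and to 24.7 to 46.0 CPM and 57.4 to 86.9 CPM in the G-MDSCs, without overlap. The part of both marker lists in the results was not tested, and in bulk samples a change in the share of a cell type and a change of RNA per cell cannot be told apart. Of the 4 melanoma markers, 2 were at 0 in every library and the sum stayed at or below 1.45 CPM. The log2 CPM of all other genes, centred within groups, gave a first principal component with 25.3% of the within-group variance, called the library score here. Scores ran from -43.1 (Nlrp3-/- M-MDSC replicate 1) to 40.0 (Nlrp3-/- M-MDSC replicate 3).

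All but B2m, Erap1 and Nlrc5 lie within the MHC region of chromosome 17 (mm10, GENCODE). Tap1 (34187553 to 34197225, plus strand) and Psmb9 (34181987 to 34187764, minus strand) start head to head, with Psmb8 (34197721 to 34201454) and Tap2 (34203527 to 34216321) next along the plus strand. H2-K1 (33996017 to 34000347, minus strand) and Tapbp (33915899 to 33929292) lie to one side and H2-D1 (35262730 to 35267499) to the other. B2m lies on chromosome 2 (122147686 to 122153083), Erap1 on chromosome 13 (74639568 to 74693201) and Nlrc5 on chromosome 8 (94434356 to 94527272), all 3 on the plus strand. Promoter windows from RefSeq (GRCm38.p6, 250 bases before to 50 after the start) were found for 8 of the 10 genes, and not for Tap2 and Nlrc5.

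The windows of Tap1, H2-K1 and B2m are shown 5′ to 3′. Tap1 and H2-K1 are the members whose genotype groups did not overlap in M-MDSCs, and B2m encodes the light chain that both heavy chains need. Capitals mark matches, on either strand, to GAAANNGAA (bound by interferon regulatory factors), TTCNNNGAA (STAT), TGACGT (a cyclic AMP response element), CCAAT (NF-Y) or GGGNNTTCC (NF-kB).
Tap1, chr17:34187306-34187605, plus strand: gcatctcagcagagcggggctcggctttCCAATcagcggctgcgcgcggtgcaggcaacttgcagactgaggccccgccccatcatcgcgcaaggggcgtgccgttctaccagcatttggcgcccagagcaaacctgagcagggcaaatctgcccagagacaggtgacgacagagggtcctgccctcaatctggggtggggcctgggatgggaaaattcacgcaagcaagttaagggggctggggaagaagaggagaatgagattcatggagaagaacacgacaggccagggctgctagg
H2-K1, chr17:34000298-34000597, minus strand: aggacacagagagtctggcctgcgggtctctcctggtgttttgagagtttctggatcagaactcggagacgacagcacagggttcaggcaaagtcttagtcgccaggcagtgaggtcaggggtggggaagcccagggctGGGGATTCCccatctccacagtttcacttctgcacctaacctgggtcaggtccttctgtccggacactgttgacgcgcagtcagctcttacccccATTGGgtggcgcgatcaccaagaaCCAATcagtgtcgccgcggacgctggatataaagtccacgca
B2m, chr2:122147437-122147736, plus strand: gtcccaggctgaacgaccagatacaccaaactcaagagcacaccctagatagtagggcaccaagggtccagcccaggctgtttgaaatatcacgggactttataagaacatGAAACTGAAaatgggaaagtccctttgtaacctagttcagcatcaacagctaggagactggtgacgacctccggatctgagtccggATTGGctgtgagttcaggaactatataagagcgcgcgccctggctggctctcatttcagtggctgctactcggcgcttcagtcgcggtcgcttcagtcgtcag
The Tap1 window and that of Psmb9 (chr17:34187281-34187580, minus strand) share 275 bases, and both hold the same CCAAT match. CCAAT was found in the windows of 6 of the 8 genes and in 37.4% of all 32851 windows. GGGNNTTCC was found in H2-K1 and H2-D1 and in 5.82% of all windows, GAAANNGAA in B2m and Erap1 and in 8.56%, and TTCNNNGAA in Psmb8 and in 8.30%. TGACGT was found in none of the 8 and in 7.51% of all windows. These are matches of letters, not sites of binding.

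To examine whether loss of Nlrp3 went with a change of class I genes in M-MDSCs, the 4 Nlrp3-/- libraries were compared with the 4 WT libraries. Of the 10 genes, 1 was higher and 0 were lower at an adjusted p under 0.05 (edgeR's quasi-likelihood test, Benjamini-Hochberg adjustment over all genes tested) and a fold change above 1.5, where 10.6% of the 9986 genes tested were called. Tap1, 1 chain of the peptide transporter, lay at 128, 102, 102 and 108 CPM in WT replicates 1 to 4 and at 132, 164, 187 and 175 CPM in Nlrp3-/- replicates. All 4 Nlrp3-/- libraries were above all 4 WT libraries, although Nlrp3-/- replicate 1 lay next to WT replicate 1. The log2 fold change of Tap1 was 0.60 (SE 0.15, edgeR adjusted p = 0.0277), a 1.51-fold rise just past the threshold.

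H2-K1, a classical heavy chain, showed the same separation without the call. It was measured at 568, 741, 645 and 834 CPM in WT and at 935, 1007, 951 and 1179 CPM in knockout libraries. The log2 fold change of H2-K1 was 0.57 (SE 0.17, edgeR adjusted p = 0.0452), a fold of 1.49. These were the members whose groups did not overlap, 2 of 10, where 19.3% of all genes tested did not overlap.

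The remaining 8 genes did not pass the test in M-MDSCs. Tapbp, the loading chaperone tapasin, lay at 777, 417, 527 and 426 CPM in WT and at 511, 694, 1043 and 696 CPM in Nlrp3-/- replicates, where WT replicate 1 reached into the upper part of the knockout range. Log2 fold changes were 0.47 (SE 0.24) for Tapbp, 0.32 (SE 0.20) for Nlrc5, 0.25 (SE 0.28) for H2-D1 and 0.25 (SE 0.18) for B2m. The immunoproteasome subunit genes Psmb8 and Psmb9 had values of -0.03 (SE 0.21) and -0.49 (SE 0.55), the transporter chain gene Tap2 of -0.54 (SE 0.93) and the trimming enzyme gene Erap1 of -0.25 (SE 0.24), with edgeR adjusted p from 0.210 to 0.947 over the 8. The median of the 10 was 0.25, beside 0.07 over all genes tested.

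The Tap1 call rests on a narrow margin. The call was lost in 6 of the 8 fits that left out 1 library (WT or Nlrp3-/- replicate 2, 3 or 4) and in several other settings, among them DESeq2 (0.58, DESeq2 adjusted p = 0.00790, under the fold threshold) and a correction for GC content and length (0.42, edgeR adjusted p = 0.0982). Without Nlrp3-/- replicate 1, a library with high Tap2 and the lowest library score, 3 members were called, with Tap2 lower by -3.29 and Psmb9 lower by -1.53 on the log2 scale beside Tap1. An alternative added after the data were seen used a covariate found like the library score, but from the 8 libraries of the comparison. Its values were not centred within groups, so they can carry differences between genotypes. With this component of the 8 libraries, H2-K1 was called (0.64, edgeR adjusted p = 0.0133). Tap1 fell under the fold threshold (0.51, edgeR adjusted p = 0.0152).

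**Figure D1:**
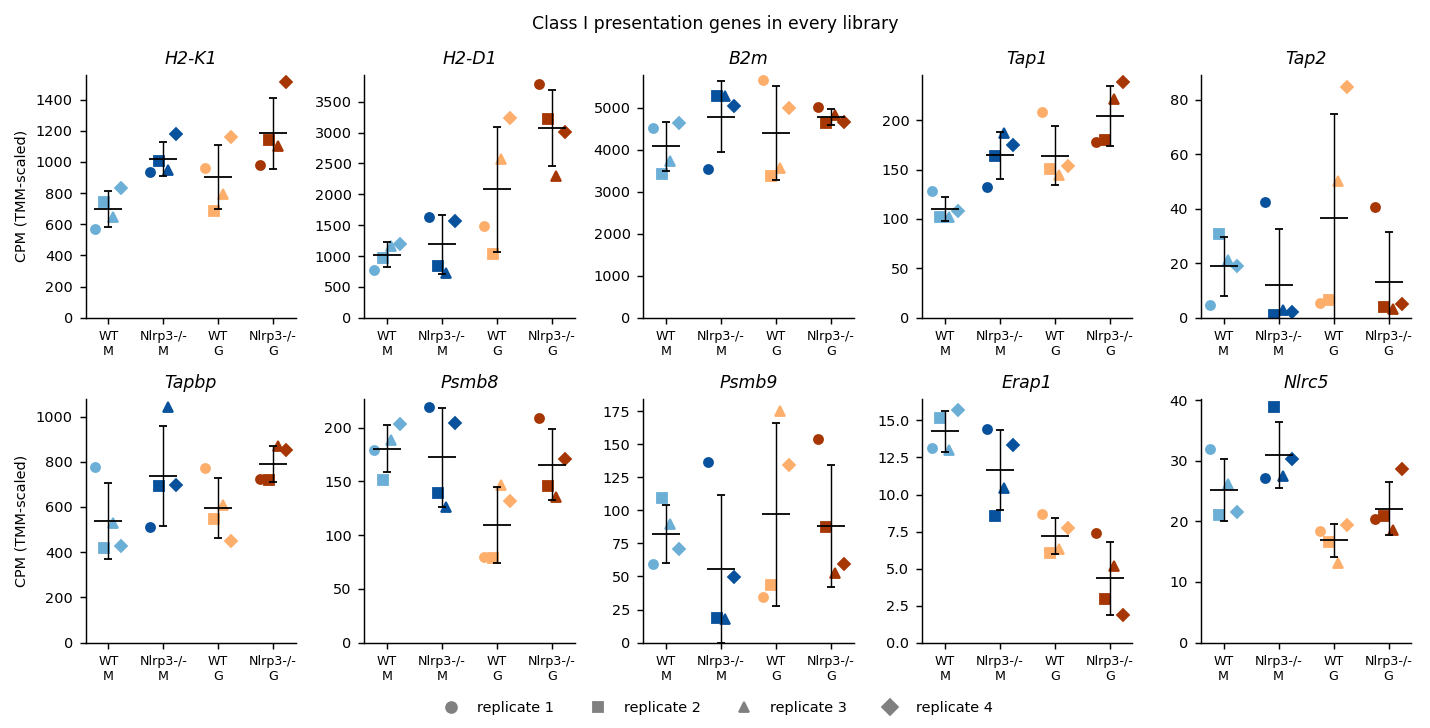
CPM after TMM scaling (y axis, from 0) of the 10 genes in the 16 libraries, by genotype and subset (M, M-MDSC; G, G-MDSC). Marker shape gives the replicate, horizontal bars the mean and whiskers the SD of 4 libraries (cut off at 0 for Tap2 and Psmb9); Tap1 and H2-K1 separate the genotypes in M-MDSCs, and Tap2 falls into libraries at or above 19.2 and at or below 6.42 CPM.

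In G-MDSCs, 0 of the 10 genes passed the test between Nlrp3-/- and WT, where 16.4% of the 9273 genes tested were called. At an unadjusted p under 0.05, 1 of the 10 remained, Psmb8, where 2997 of the 9273 genes tested lay under it. DESeq2 and the exact test with tagwise dispersions called 0 of the 10. Psmb8, the catalytic subunit that replaces Psmb5, was measured at 79.3, 78.7, 147 and 132 CPM in WT and at 209, 146, 135 and 171 CPM in Nlrp3-/- G-MDSCs. The groups overlapped, since WT replicates 1 and 2 were low while WT replicate 3 lay within the range of the knockout libraries. The log2 fold change of Psmb8 was 0.51 (SE 0.22, edgeR adjusted p = 0.132), and it was called without WT replicate 3 (0.71, edgeR adjusted p = 0.0475).

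The peptide transporter and loading genes did not separate the genotypes in G-MDSCs. Tap1 was measured at 208, 151, 144 and 153 CPM in WT and at 178, 179, 221 and 239 CPM in Nlrp3-/- cells, and only WT replicate 1 reached into the Nlrp3-/- range. Its log2 fold change was 0.23 (SE 0.17, edgeR adjusted p = 0.361), and that of Tapbp was 0.33 (SE 0.17, edgeR adjusted p = 0.202). Tap2 had the largest change of the 10, -1.54, with an SE of 0.86 and an edgeR adjusted p of 0.232.

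Heavy chains followed the same pattern of overlap. H2-K1 was measured at 960, 688, 797 and 1162 CPM in WT and at 982, 1138, 1099 and 1513 CPM in knockout libraries, giving a log2 fold change of 0.31 (SE 0.19, edgeR adjusted p = 0.286). H2-D1 had a log2 fold change of 0.48 (SE 0.29), B2m of 0.04 (SE 0.18), Nlrc5 of 0.31 (SE 0.25), Psmb9 of -0.23 (SE 0.46) and Erap1 of -0.80 (SE 0.46). In 0 of 10 members did the groups stand apart, where 24.3% of all genes tested did. The median log2 fold change of the 10 was 0.27, beside 0.03 over all genes tested.

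Whether the genotype effect differed between the subsets was tested by an interaction term over the 16 libraries, in a fit that did not pair the libraries of a mouse. For 0 of the 10 genes was a difference called, where 0.028% of the 10696 genes tested were called. At an unadjusted p under 0.05 the count was also 0 of 10, where 480 of the 10696 genes lay under it. After adjustment with DESeq2 and with tagwise dispersions it was 0 of 10 as well. Psmb8 came nearest, with a difference of 0.66 on the log2 scale (SE 0.32, unadjusted p = 0.0510 in edgeR, adjusted p = 0.992). For Tap1 the effect in G-MDSCs was lower than in M-MDSCs by -0.26 (SE 0.23, edgeR adjusted p = 0.992), so its call in M-MDSCs was not shown to be particular to them.

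The comparison of subsets depended on scaling. TMM factors were 1.20 to 1.46 in M-MDSCs and 0.723 to 0.805 in G-MDSCs, and with library size alone the median log2 fold change of all genes moved from -0.05 to -0.79 in WT and from -0.12 to -0.83 in Nlrp3-/- mice. Of the genes called between subsets, 50.8% were lower in G-MDSCs of WT mice with TMM and 81.3% with library size alone. Within subsets the same change moved the share lower in Nlrp3-/- cells from 66.9% to 45.4% in M-MDSCs and from 71.4% to 51.9% in G-MDSCs.

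Compared with M-MDSCs of WT mice, 1 of the 10 genes was higher and 3 were lower in G-MDSCs, where 53.3% of the 9739 genes tested were called. In Nlrp3-/- mice, 1 was higher and 2 were lower, where 51% of 10071 genes were called. Both fits treated the M- and G-MDSC libraries as unpaired although they share mice, and the mouse as a block was an alternative. With library size alone, 5 members were called in WT and 6 in Nlrp3-/- mice, all lower. These counts of 10 are not read as a difference between the members and all genes. H2-D1, the second classical heavy chain, was the gene that was higher. It lay at 771, 968, 1159 and 1196 CPM in WT M-MDSCs and at 1484, 1031, 2565 and 3242 CPM in WT G-MDSCs, where replicate 2 overlapped the M-MDSC range. In Nlrp3-/- mice it was measured at 1634, 842, 718 and 1562 CPM in M-MDSCs and at 3785, 3213, 2291 and 3016 CPM in G-MDSCs, with no overlap. Log2 fold changes of H2-D1 were 1.02 (SE 0.32, edgeR adjusted p = 0.0157) and 1.25 (SE 0.27, edgeR adjusted p = 0.00149). With library size alone the values were 0.29 and 0.52 and the calls were lost, and in WT the call was also lost without WT G-MDSC replicate 4 (0.74, edgeR adjusted p = 0.0568).

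Erap1 was the lowest of the 10 in level and was lower in G-MDSCs under each scaling. It was measured at 13.2, 15.2, 13.004 and 15.7 CPM in WT M-MDSCs, 14.4, 8.52, 10.4 and 13.3 CPM in Nlrp3-/- M-MDSCs, 8.67, 6.08, 6.29 and 7.77 CPM in WT G-MDSCs and 7.38, 2.96, 5.17 and 1.83 CPM in Nlrp3-/- G-MDSCs. The subsets did not overlap in either genotype, although the lowest of these values rests on 7 counts. Erap1 fell by 0.98 (SE 0.25, edgeR adjusted p = 0.00468) in WT and by 1.53 (SE 0.43, edgeR adjusted p = 0.00806) in Nlrp3-/- mice on the log2 scale.

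Nlrc5, the class I transactivator, was also lower in G-MDSCs. Its CPM were 31.9, 21.1, 26.2 and 21.6 in WT M-MDSCs and 18.3, 16.5, 13.1 and 19.4 in WT G-MDSCs, without overlap. In Nlrp3-/- mice they were 27.2, 38.8, 27.5 and 30.3 in M-MDSCs and 20.3, 20.95, 18.6 and 28.5 in G-MDSCs, where G-MDSC replicate 4 overlapped. Log2 fold changes were -0.59 (SE 0.22, edgeR adjusted p = 0.0390) and -0.60 (SE 0.22, edgeR adjusted p = 0.0348), both at the edge of the fold threshold. Nlrc5 lost the call with DESeq2 size factors in both genotypes (-0.58 and -0.56) and, in WT, with the mouse as a block (-0.58), and leaving out 1 library ended it in 4 of 8 fits in WT and 5 of 8 in Nlrp3-/- mice.

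Psmb8 was lower in G-MDSCs of WT mice by -0.72 (SE 0.22, edgeR adjusted p = 0.0137) and had a value of -0.18 (SE 0.22, edgeR adjusted p = 0.501) in Nlrp3-/- mice, a difference between genotypes that is the interaction given above. In WT the call fell under the fold threshold without G-MDSC replicate 1 or 2 (-0.58 each) and with the GC content and length correction (-0.55). Tap1 had a log2 fold change of 0.58 (SE 0.16, edgeR adjusted p = 0.0100) in WT, just under the fold threshold, and of 0.20 (SE 0.16, edgeR adjusted p = 0.313) in Nlrp3-/- mice. With library size alone the direction turned, to -0.17 and -0.52. H2-K1, B2m and Tapbp did not pass the test between subsets with TMM, and with library size alone all 3 were negative in both genotypes, from -0.37 to -0.83. With the mouse as a block, Psmb9 was higher in G-MDSCs of Nlrp3-/- mice (0.88, edgeR adjusted p = 0.00948).

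**Figure D2:**
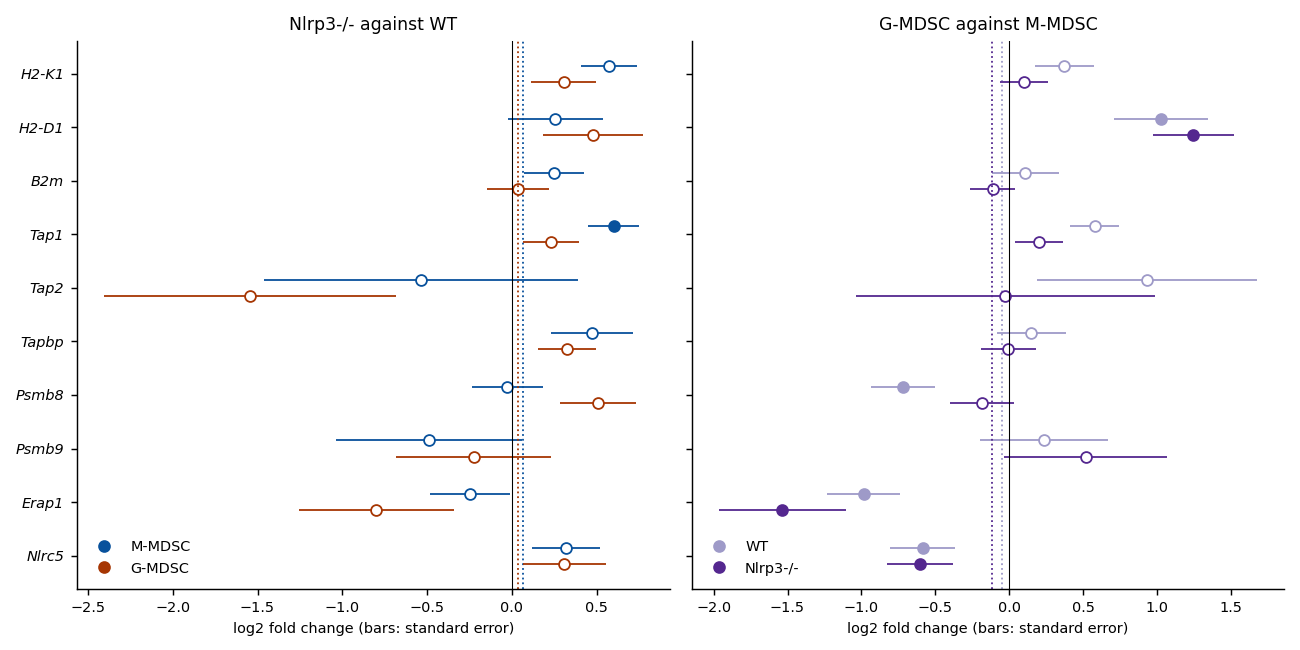
Log2 fold changes (x axis) of the 10 genes, Nlrp3-/- against WT at left and G-MDSC against M-MDSC at right, with standard errors as bars. Filled points passed the test, and dotted lines mark the median of all genes tested; Tap1 alone is filled at left, and H2-D1, Erap1 and Nlrc5 are filled in both genotypes at right.

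Over the 4 groups, the order of mean levels differed between genes. Tap1 rose from WT M-MDSCs (110 ± 12.3 CPM, SD, n = 4) through WT G-MDSCs (164 ± 29.8 CPM) and Nlrp3-/- M-MDSCs (164 ± 23.6 CPM) to Nlrp3-/- G-MDSCs (204 ± 30.6 CPM), and of these neighbours the lowest pair did not overlap. H2-K1 had the order WT M-MDSC (697 ± 116 CPM), WT G-MDSC (902 ± 206.5 CPM), Nlrp3-/- M-MDSC (1018 ± 112 CPM) and Nlrp3-/- G-MDSC (1183 ± 229.6 CPM), with overlap at every step. B2m lay at 4086 ± 587 CPM in WT M-MDSCs, 4791 ± 839 CPM in Nlrp3-/- M-MDSCs, 4399 ± 1117 CPM in WT G-MDSCs and 4783 ± 183 CPM in Nlrp3-/- G-MDSCs. In the other 7 genes, neighbouring groups overlapped at every step of the order. These orders hold on the TMM scale.

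Tap2 and Psmb9 varied more within groups than between them. Tap2 was measured at 4.64, 30.9, 21.4 and 19.2 CPM in WT M-MDSCs, 42.6, 1.19, 2.71 and 2.05 CPM in Nlrp3-/- M-MDSCs, 5.33, 6.42, 50.1 and 84.7 CPM in WT G-MDSCs and 40.8, 3.94, 3.31 and 5.24 CPM in Nlrp3-/- G-MDSCs. The 16 libraries split into 9 at or below 6.42 CPM and 7 at or above 19.2 CPM. In 7 of 8 mice both subsets fell on the same side of that gap, the exception being the mouse of WT replicate 2, with 30.9 CPM in M-MDSCs and 6.42 CPM in G-MDSCs. The range within Nlrp3-/- M-MDSCs was 35.7-fold for Tap2 and 7.55-fold for Psmb9, against 1.42-fold for Tap1.

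Psmb9 followed Tap2 in this. It lay at 59.5, 109, 89.8 and 70.5 CPM in WT M-MDSCs, 137, 18.4, 18.1 and 49.6 CPM in Nlrp3-/- M-MDSCs, 34.7, 43.6, 175 and 134 CPM in WT G-MDSCs and 154, 87.7, 52.3 and 59.2 CPM in Nlrp3-/- G-MDSCs. Between the libraries with the lowest and the highest score of a group, Tap2 was higher at the low score by 2.11 to 3.78 on the log2 scale, Psmb9 by 0.59 to 2.89, H2-D1 by 0.59 to 1.19 and Psmb8 by 0.07 to 0.89, in 4 of 4 groups each. Tap1 and Tapbp had the opposite sign in all 4 groups, with differences of -0.53 to -0.31 and -1.03 to -0.27. Tap1 and Psmb9, whose promoter windows share the bases printed above, thus moved in opposite directions along the score. Outside the list, Pfn1 (profilin, an actin-binding protein), named after its values were seen, was higher at the low score by 3.48 to 6.31 in 4 of 4 groups. The score was found from genes outside the list, Pfn1 among them, so the direction of Pfn1 was not independent of the score. What the score stands for was not tested.

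**Figure D3:**
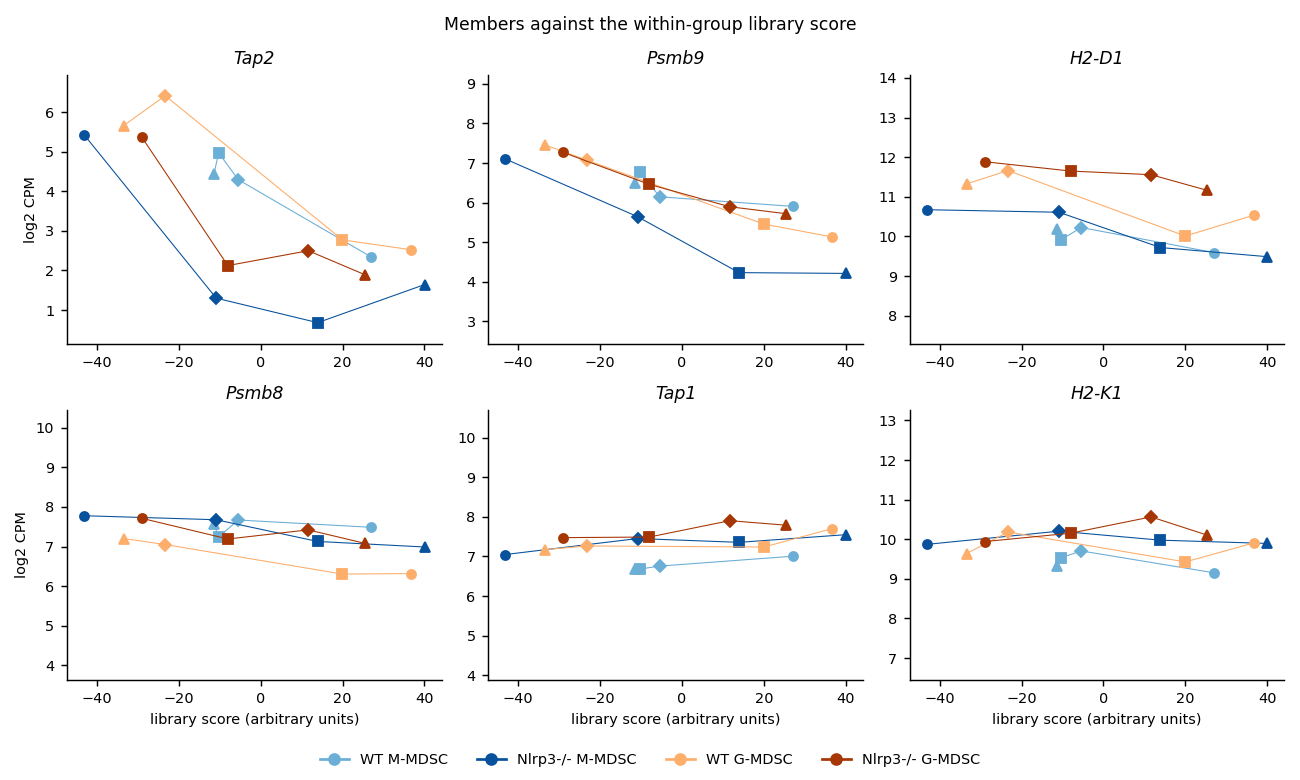
Log2 CPM of 6 members (y axis, each panel spanning the same range) against the library score (x axis, arbitrary units), with marker shapes for replicates as in the plot of levels and lines joining the 4 libraries of a group. Tap2, Psmb9 and H2-D1 are higher at the lowest than at the highest score in each group, while Tap1 is higher at the highest score than at the lowest by 0.31 to 0.53.

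The exchange of constitutive for inducible catalytic subunits was described as the log2 ratio of CPM + 1, in libraries that count 1 tag per transcript and so need no division by length. Psmb8 over Psmb5 was 2.91 ± 0.24 (SD, n = 4) in M-MDSCs of WT and 2.59 ± 0.50 in those of Nlrp3-/- mice, and 2.15 ± 1.07 and 3.32 ± 0.43 in the G-MDSCs. Psmb9 over Psmb6 was -0.28 ± 0.59, -1.61 ± 1.64, 0.68 ± 1.31 and 0.65 ± 0.82 in the same order. Psmb10 over Psmb7, the third pair, was 1.52 ± 0.47, 2.62 ± 0.67, 0.03 ± 0.89 and 0.74 ± 0.30. The 12 differences between groups were tested by exact two-sided permutation tests of 4 against 4, whose smallest possible p is 0.0286. Only Psmb10 over Psmb7 between subsets in Nlrp3-/- mice reached it, with a difference of -1.88 (exact permutation p = 0.0286, adjusted p = 0.206 over the 12). In 0 of 12 was the adjusted p under 0.05, where the adjusted values ran from 0.206 to 1. Only a few tests at the smallest p of 0.0286 could not give an adjusted p under 0.05 over 12. The count of 0 therefore does not show that the ratios were alike. These tests treat the M- and G-MDSC libraries as unpaired although they share mice. Within mice, Psmb10 over Psmb7 was lower in G-MDSCs in 4 of 4 WT and 4 of 4 Nlrp3-/- mice, by -1.49 ± 0.51 and -1.88 ± 0.47 (SD of the differences). In Nlrp3-/- mice, Psmb9 over Psmb6 was higher in G-MDSCs in 4 of 4 (1.06, 3.68, 3.07 and 1.23 in replicates 1 to 4), and Psmb8 over Psmb5 likewise in 4 of 4 (0.73 ± 0.26). In WT mice these ratios were higher in 3 of 4 and 1 of 4. An exact paired permutation test of 4 mice, added after the data were seen, cannot give a p below 0.125, the value for each ratio with 4 mice of one sign (adjusted p = 0.188 over 6 tests).

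**Figure D4:**
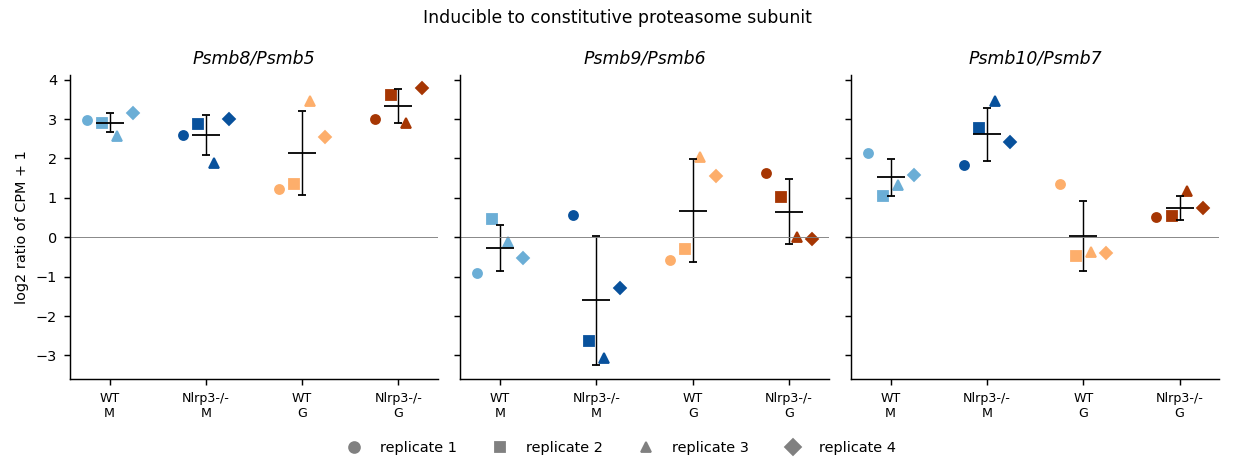
Log2 ratio of CPM + 1 (y axis) of each inducible proteasome subunit gene to the constitutive one it replaces, by group (M, M-MDSC; G, G-MDSC). Points are libraries with marker shapes for replicates, bars the mean and whiskers the SD of 4; Psmb9/Psmb6 spreads from -3.07 to 2.05 and WT G-MDSC replicate 1 stands apart in Psmb10/Psmb7.

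Other genes of the pathway were taken from lists chosen with earlier results of these data known. Of 6 peptide-trimming enzymes tested, 3 were lower and 0 higher in Nlrp3-/- M-MDSCs (10.6% of all genes called), and 4 lower and 0 higher in Nlrp3-/- G-MDSCs (16.4%). Lnpep, an endosomal aminopeptidase used in cross-presentation, lay at 19.6 to 38.0 CPM in M-MDSCs of WT and 9.49 to 14.1 CPM in those of Nlrp3-/- mice, and at 49.9 to 99.0 CPM and 18.4 to 28.8 CPM in the G-MDSCs. The genotypes did not overlap in either subset, and Lnpep fell by 1.44 (SE 0.25, edgeR adjusted p = 0.00543) and 1.77 (SE 0.24, edgeR adjusted p = 0.000261) on the log2 scale. Tpp2, a cytosolic peptidase, fell by 0.90 (SE 0.21, edgeR adjusted p = 0.0201) and 1.37 (SE 0.22, edgeR adjusted p = 0.000803), and Npepps, a cytosolic aminopeptidase, by 0.74 (SE 0.18, edgeR adjusted p = 0.0219) and 0.75 (SE 0.16, edgeR adjusted p = 0.00551). Nrd1, a metallopeptidase, fell by 0.70 in G-MDSCs (SE 0.17, edgeR adjusted p = 0.0142). With the correction for GC content and length, 2 of the 6 were called in each subset, and without M-MDSC replicate 2 or 4 of WT or replicate 4 of Nlrp3-/- only Lnpep was called in M-MDSCs.

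Of 6 genes of folding and loading, 1 was lower in each subset without Nlrp3, a share near that of all genes (10.6% called in M-MDSCs and 16.4% in G-MDSCs). This was Pdia3, the disulfide isomerase of the peptide-loading complex, which fell by 0.82 in M-MDSCs (SE 0.23, edgeR adjusted p = 0.0390) and by 1.02 in G-MDSCs (SE 0.21, edgeR adjusted p = 0.00423). The M-MDSC call was lost when corrected for GC content and length and without WT replicate 1 or 4 or Nlrp3-/- replicate 2 or 4. Of 17 transcriptional regulators, 3 were higher and 1 lower in Nlrp3-/- M-MDSCs, and 1 higher and 3 lower in G-MDSCs, beside the same shares of all genes. Rela, the NF-kB subunit p65, rose by 0.77 (edgeR adjusted p = 0.0221) and 0.82 (edgeR adjusted p = 0.00787) and Nfyb, an NF-Y subunit, fell by 0.79 (edgeR adjusted p = 0.0236) and 0.89 (edgeR adjusted p = 0.0160) in M- and G-MDSCs. In M-MDSCs the interferon-induced factor Irf1 rose by 0.70 (edgeR adjusted p = 0.0279) and Rfx5 by 0.79 (edgeR adjusted p = 0.0406), and in G-MDSCs Irf2, a related factor, fell by 0.69 (edgeR adjusted p = 0.00585). With the correction for GC content and length, 1 of the 17 was called in M-MDSCs and 0 in G-MDSCs. Leaving out Nlrp3-/- M-MDSC replicate 1 raised the count in M-MDSCs to 7, and leaving out any other single library of that comparison lowered it to 0 or 1. Of 7 interferon receptor and kinase genes, 0 were called in either subset.

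Between subsets, 3 of 4 genes of the inducible proteasome or its assembly were lower in G-MDSCs of both genotypes and 0 were higher, where 53.3% and 51% of all genes were called in either direction. Psmb10, the third inducible catalytic subunit, had 145 ± 37.0 CPM in WT M-MDSCs and 30.8 ± 11.7 CPM in WT G-MDSCs (SD, n = 4), and it fell by 2.23 (SE 0.27, edgeR adjusted p = 2.52e-05) in WT and 2.03 (SE 0.17, edgeR adjusted p = 2.97e-07) in Nlrp3-/- mice. Pomp, an assembly factor, fell by 1.56 and 1.74 (edgeR adjusted p = 0.000486 and 6.76e-06), and Psme1, an activator subunit, by 0.61 and 0.71 (edgeR adjusted p = 0.00768 and 0.00119). The WT call of Psme1 was lost when corrected for GC content and length and without WT G-MDSC replicate 2 or 4 or WT M-MDSC replicate 1. The constitutive subunit gene Psmb6 was lower as well, by -1.02 and -1.38 on the log2 scale (edgeR adjusted p = 0.000285 and 2.82e-05). Of 6 folding and loading genes, 4 were lower in each genotype, among them calnexin (Canx), with -1.27 in WT and -1.70 in Nlrp3-/- mice. In Nlrp3-/- mice 1 was higher, the chaperone gene Hspa5 (0.84, edgeR adjusted p = 0.00128), named because it went the other way, and its call was lost with library size only.

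Of 21 other class I heavy-chain and class I-like genes, 8 had 0 counts in every library, which allows up to 3 counts or 0.493 to 1.31 CPM in a library, and 7 were tested in each comparison. Heavy chains are near-identical paralogs, so their counts, those of H2-K1 and H2-D1 included, are uncertain where reads fit several genes. H2-Q10, a nonclassical heavy chain, was measured at 468 to 789 CPM in WT G-MDSCs and 892 to 1065 CPM in Nlrp3-/- G-MDSCs, and at 0 to 6 counts in WT and 2 to 17 counts in Nlrp3-/- M-MDSCs (edgeR adjusted p = 1.53e-08 and 1.87e-10 between subsets). Between subsets, 3 of the 7 were called higher and 1 lower in G-MDSCs of each genotype, where 53.3% and 51% of all genes were called. H2-M3, named because it went the other way, had -2.86 to -1.79 in WT and -2.03 to -0.91 in Nlrp3-/- mice over the alternatives. H2-T24, another nonclassical heavy chain, was higher in G-MDSCs of both genotypes, by 1.93 (SE 0.18) in WT and 1.57 (SE 0.40) in Nlrp3-/- mice on the log2 scale. The Nlrp3-/- call of H2-T24 was lost with library size only. In G-MDSCs it fell without Nlrp3, from 49.98 to 73.8 CPM in WT to 18.7 to 46.8 CPM in Nlrp3-/- libraries (log2 fold change -1.20, SE 0.27, edgeR adjusted p = 0.00777), without overlap and under all 21 alternatives. The lipid-presenting Cd1d1 rose by 1.34 in Nlrp3-/- G-MDSCs (SE 0.42, edgeR adjusted p = 0.0421), a call lost when corrected for GC content and length and without replicate 2, 3 or 4 of either genotype.

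By root mean square difference of centred log2 CPM over the 16 libraries, the genes most like H2-K1 were Ythdf3 (0.17) and Pik3r4 (0.20). Most like Tap2 were Hacd2 (0.70) and Rnf130 (0.70), at a distance larger than that of any other member from its nearest gene. No member was among the 2 nearest genes of another member. These distances describe the 16 libraries, which share mice and subsets.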

How the data were processed

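Messenger RNA of 16 libraries, 4 per group, was measured with the QuantSeq 3′ kit. The authors mapped reads to mm10 with HISAT2 2.1.0 and counted them on genes by strand with HTSeq, and the deposited values are raw counts of 24421 gene symbols per library, without normalization. Amplification ran for 15 or 17 cycles, not assigned to libraries in the sources used here, so limits from counts cover counting error only. No pair of libraries among 24 within groups was identical (chi-square per degree of freedom 6.76 to 50.6). Each library is 1 subset of 1 mouse, and the 16 libraries come from 8 mice.

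Counts were tested in R 4.3.3 with edgeR 4.0.16 (filterByExpr, TMM, quasi-likelihood test). A call needed a Benjamini-Hochberg adjusted p under 0.05 over all genes tested and a fold change above 1.5. SE is the log2 fold change over the square root of F. Log2 CPM used a prior count of 2. DESeq2 1.42.0, other scalings, filters, dispersions, 1 fit over all libraries, blocks, a GC and length correction (GENCODE, 24025 symbols matched) and leaving out each library were alternatives. Scripts were tested on simulated data. The members and lists were chosen with earlier results of these data known. At most 4 genes per list were named, those with the smallest p among calls or, where stated, a gene that went the other way. For each member the 2 nearest genes were found, and those of H2-K1 and Tap2 are given. Some genes that these rules select are not reported here. M- and G-MDSC libraries of a number share a mouse by their labels (correlation of deviations 0.00821 to 0.397), while WT and Nlrp3-/- libraries share only a number.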

Additional observations from a re-analysis of the deposited data

Results flagged for a closer look

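Within groups of 4, Dixon's test was applied to the log2 CPM of the 10 genes and to the 3 subunit ratios, 52 groups in all, of which chance would flag about 2.6. It flagged 2. B2m in Nlrp3-/- M-MDSC replicate 1 lay at a log2 CPM of 11.8, below the other Nlrp3-/- M-MDSC libraries at 12.3 to 12.4. That library also had the lowest library score and the highest Tap2 and Psmb9 of its group, and what sets it apart was not tested. The log2 ratio of Psmb10 to Psmb7 in WT G-MDSC replicate 1 was 1.36, above the other WT G-MDSC libraries at -0.47 to -0.37, and that library had the highest library score of its group.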

How the results depend on the processing

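Between genotypes in M-MDSCs, 1060 genes were called, against 655 with the GC content and length correction and 450 to 1783 when 1 library was left out (1783 without Nlrp3-/- replicate 1). Of the 10 members 1 was called, against 2 with no fold change minimum, library size only or upper-quartile scaling, 0 with DESeq2 size factors, DESeq2, the GC content and length correction or 1 fit over all 16 libraries, and 0 to 3 when 1 library was left out. In G-MDSCs 1522 genes were called, against 965 with the GC content and length correction. There 0 members were called, against 1 with no filter (Tap2 lower, -1.55) or the component of the 8 libraries as a covariate (Tap2 lower, -2.21). When 1 library was left out, 0 to 1 members were called (Tap2 without Nlrp3-/- replicate 1, -3.22, or Psmb8 without WT replicate 3). Between subsets of Nlrp3-/- mice, 3 members were called, against 6 with library size only, all lower, and 2 to 5 when 1 library was left out (5 without M-MDSC replicate 1). The difference of the genotype effect was called in 3 genes, against 5 with no filter, 8 with DESeq2, 12 with tagwise dispersions and 2 to 5 when 1 library was left out, with 0 members each time.

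WT and Nlrp3-/- libraries share only a replicate number (correlation of deviations -0.452 to 0.0177). With the replicate block, 425 genes and 0 members were called in M-MDSCs and 985 genes and 0 members in G-MDSCs, and with the GC content and length correction added, 48 genes and 0 members and 401 genes and 0 members. The regulators called in M-MDSCs numbered 0 with the block, Pdia3 in M-MDSCs and Cd1d1 in G-MDSCs lost their calls, and the trimming genes 0 in both subsets with block and correction. Pairing subsets by mouse gave 5447 genes and 3 members in WT and 5397 genes and 4 members in Nlrp3-/- mice, and of the members' calls between subsets the block changed those of Nlrc5 in WT and Psmb9 in Nlrp3-/- mice. The subunit ratios paired by mouse could not reach the threshold with 4 mice (smallest exact permutation p 0.125).

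Some log2 fold changes that were not called in the comparisons above changed sign. With library size only, the reversed values of B2m and Tapbp between subsets of WT mice passed the test (edgeR adjusted p = 0.0291 and 0.0326). So did that of H2-K1 between subsets of Nlrp3-/- mice (edgeR adjusted p = 0.00217). In M-MDSCs between genotypes, the GC content and length correction gave -0.027 for H2-D1 and 0.14 for Erap1 (-0.11 and 0.10 with the replicate block added). Psmb8 had 0.072 with library size only and 0.092 with the component of the 8 libraries as a covariate. Between subsets of WT mice, library size only gave -0.37 for H2-K1, -0.64 for B2m, -0.17 for Tap1, -0.61 for Tapbp and -0.48 for Psmb9, upper-quartile scaling -0.11 for B2m and -0.067 for Tapbp, and the replicate block -0.012 for Psmb9. Between subsets of Nlrp3-/- mice, library size only gave -0.63 for H2-K1, -0.52 for Tap1 and -0.22 for Psmb9, and upper-quartile scaling -0.057 for H2-K1. There B2m had 0.065 with the GC content and length correction and 0.10 with the block added, Tap2 had 0.010 with DESeq2 size factors, 0.55 with the replicate block, 0.55 with block and correction and 0.10 in 1 fit over all libraries, and Tapbp had 0.034 with DESeq2 size factors or DESeq2, 0.030 with the replicate block, 0.021 with the correction, 0.050 with both and 0.10 in 1 fit. The genotype difference between subsets for Tap2 was 0.10 with the replicate block and 0.0037 with block and correction. Apart from the scalings, whose factors differ between subsets, the cause was not tested.

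When 1 library was left out, signs changed within these ranges. Between genotypes they were -0.22 to 0.10 for Psmb8 in M-MDSCs, and -0.063 to 0.17 for B2m and -0.63 to 0.26 for Psmb9 in G-MDSCs. Between subsets they were -0.031 to 0.23 for B2m, -0.023 to 0.34 for Tapbp and -0.21 to 0.53 for Psmb9 in WT mice, and -0.010 to 0.21 for H2-K1, -1.72 to 2.66 for Tap2 and -0.14 to 0.19 for Tapbp in Nlrp3-/- mice. For the difference of the genotype effect they were -0.39 to 0.035 for B2m, -2.53 to 1.64 for Tap2, -0.34 to 0.17 for Tapbp, -0.0011 to 1.18 for Psmb9 and -0.12 to 0.23 for Nlrc5. Between subsets of Nlrp3-/- mice, Tap2 passed the test without M-MDSC replicate 1 (2.66, edgeR adjusted p = 0.0138). Depth limits the values of Erap1 and Tap2, which fell to 7 counts in single libraries.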
